A study of Homo sapiens with 20 samples.

Results

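Far intergenic cohesin peaks were taken as the ChIP-seq peaks whose centre lay outside every protein-coding gene of GENCODE version 44 and more than 50 kb from the start of any of them, on chromosomes 1 to 22 and X of the human build hg38. Of 188301 peaks in 6 lists, 53402 met this rule. In CHM13 cells these were 20898 of 73739 RAD21 peaks, 11584 of 38153 SA1 peaks and 13722 of 44374 SA2 peaks, and the RPE-1 lists gave 3147 of 14939, 2593 of 10707 and 1458 of 6389, respectively.

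The lists came from chromatin immunoprecipitation and sequencing (ChIP-seq), which recovers DNA fragments crosslinked to a protein with an antibody. CHM13 is a line from a hydatidiform mole and RPE-1 a line from retinal pigment epithelium, both immortalised with hTERT and both grown here without any treatment that the labels name. RAD21, SA1 and SA2 were each precipitated in 3 biological replicates of CHM13 and 2 of RPE-1, with the same number of total chromatin inputs, 20 libraries in all. Each list pools its replicates and gives positions only, so no spread between replicates and no p-value can be given. The intervals below are 95% intervals for counting error. They treat peaks as independent, which neighbouring peaks are not. A difference is called where its interval excludes no difference. The files hold no read counts. Read totals that the study lists elsewhere were not used as values here, but by them the precipitated libraries of RPE-1 cells were sequenced less deeply than those of CHM13 cells, except for a RAD21 library of CHM13 cells that was the shallowest. The RAD21 antibody differed between the lines, chromatin was sheared on different sonicators, and the numbers of replicates differed, so these and depth cannot be told apart from the cell line. The list of SA2 in RPE-1 cells held 6416 peaks on hg38 against 9579 on CHM13 v1.0, 0.670 times as many, while for the other 5 lists this ratio was 0.933 to 1.04.

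Cohesin is a ring complex that holds sister chromatids together and extrudes chromatin loops. RAD21 closes the ring, and SA1 (STAG1) and SA2 (STAG2) are alternative subunits that bind to it, so a complex holds RAD21 with either of them. Loop extrusion is known to stall at CTCF, a zinc finger protein bound to a directional motif, and stretches without genes are known to hold distant enhancers and loop anchors of the genes at their borders.

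To show what such sites look like, the reference sequence is printed for loci that were present in all 6 lists inside gene deserts, the gaps of more than 1 Mb between neighbouring protein-coding genes. The deserts are 5 of the 8 selected for the most RAD21 peaks in CHM13 cells or for the most loci in all 6 lists, and the locus nearest to the middle of the desert that held a match to the CTCF core is shown. No such locus with a match was found in the desert between RFPL4B and MARCKS, and no sequence is printed for those between MYC and GSDMC and between HAS2 and ZHX2. The CTCF core is the 12-position centre of the CTCF motif, searched on both strands with at most 1 mismatch. All 5 windows of 100 bp are on the plus strand of hg38 and lie outside protein-coding genes, and the capitals mark the CTCF core match. It is on the minus strand in the CITED2 to NMBR and SORCS1 to XPNPEP1 windows, and it has 1 mismatch in the RASGRP1 to THBS1 window and 0 in the others.
CITED2 to NMBR, chr6:141562964-141563063: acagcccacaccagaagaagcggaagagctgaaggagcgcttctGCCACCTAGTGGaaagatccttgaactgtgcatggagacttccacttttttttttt
AGA to TENM3, chr4:181143398-181143497: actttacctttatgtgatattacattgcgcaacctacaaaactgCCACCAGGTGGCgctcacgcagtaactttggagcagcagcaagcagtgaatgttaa
RASGRP1 to THBS1, chr15:39172192-39172291: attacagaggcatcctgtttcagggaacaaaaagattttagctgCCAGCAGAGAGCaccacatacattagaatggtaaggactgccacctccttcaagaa
TMEM132B to TMEM132C, chr12:127108741-127108840: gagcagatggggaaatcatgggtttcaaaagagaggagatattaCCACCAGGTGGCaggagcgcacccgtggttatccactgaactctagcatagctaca
SORCS1 to XPNPEP1, chr10:108544658-108544757: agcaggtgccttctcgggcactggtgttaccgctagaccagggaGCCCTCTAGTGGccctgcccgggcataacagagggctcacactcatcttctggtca

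These loci were distant from genes and carried peaks of unequal width. The locus in the AGA to TENM3 desert lay 3701 kb from AGA and 1001 kb from TENM3. In CHM13 cells its RAD21 peak measured 791 bp, its SA1 peak 764 bp and its SA2 peak 771 bp, while those of RPE-1 cells measured 497, 397 and 441 bp. The locus in the RASGRP1 to THBS1 desert measured 2301 bp for RAD21 in CHM13 cells and 1473 bp in RPE-1 cells. In each of the 5 loci the peak of a given subunit was wider in CHM13 than in RPE-1 cells.

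Far intergenic space held 1161 Mb of sequence without N, 39.9% of that of the 23 chromosomes, and a smaller share of the peaks of every list. In CHM13 cells RAD21 had 28.3% of its peaks there (Wilson interval 28.0 to 28.7%), SA1 30.4% (29.9 to 30.8%) and SA2 30.9% (30.5 to 31.4%). The corresponding shares of RPE-1 cells were 21.1% (20.4 to 21.7%), 24.2% (23.4 to 25.0%) and 22.8% (21.8 to 23.9%). In these lists the share was lowest for RAD21 in both lines, and in each subunit it was lower in RPE-1 than in CHM13 cells, with intervals that did not overlap.

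Expressed as density, RAD21 of CHM13 cells reached 18.0 peaks per Mb in far intergenic space and 30.2 per Mb in the rest, a ratio of 0.596 (exact conditional interval 0.587 to 0.606). SA1 had a ratio of 0.657 (0.643 to 0.672) and SA2 one of 0.675 (0.661 to 0.689). Without the α-satellite blocks defined below the ratio was 0.618 for RAD21, 0.615 for SA1 and 0.666 for SA2, so RAD21 was then no longer lowest in CHM13 cells. RPE-1 cells had lower ratios, with 0.402 (0.387 to 0.419) for RAD21, then 0.446 (0.420 to 0.473) for SA2 and 0.482 (0.461 to 0.504) for SA1. The far density was below the density of the rest on 23 of 23 chromosomes in 5 lists, and on 22 of 23 in the SA2 list of RPE-1 cells, where chromosome X was the exception at 0.913 against 0.834 peaks per Mb. For RAD21 in CHM13 cells the far density ranged from 7.80 peaks per Mb on chromosome X to 24.6 per Mb on chromosome 12.

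Density declined with distance from genes rather than at the 50-kb limit. Just inside it, at 50 to 60 kb from the nearest start, RAD21 in CHM13 cells had 27.1 peaks per Mb, and just outside, at 40 to 50 kb, 28.8 per Mb. The corresponding densities in RPE-1 cells were 6.34 and 7.26 per Mb. Because the rule used this distance, the values along it are given without a test.

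The decline was steeper in RPE-1 cells. With α-satellite blocks left out (defined below), RAD21 in CHM13 cells had 26.2 peaks per Mb at 50 to 100 kb, 17.9 at 200 to 500 kb and 7.97 at 1000 to 2000 kb. RAD21 in RPE-1 cells had 5.68, 2.07 and 0.742 per Mb in the same bins. Sequence more than 2000 kb from any start, 14.0 Mb in all, had more, 10.3 (8.73 to 12.2) per Mb in CHM13 and 2.78 (1.98 to 3.80) per Mb in RPE-1 cells. With the blocks this bin spanned 33.2 Mb, and how much of the 14.0 Mb lies beside them was not counted. Within 10 kb of a start, outside genes, the densities were 38.8 and 15.1 per Mb. SA1 and SA2 followed the same course in both lines.

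**Figure D1:**
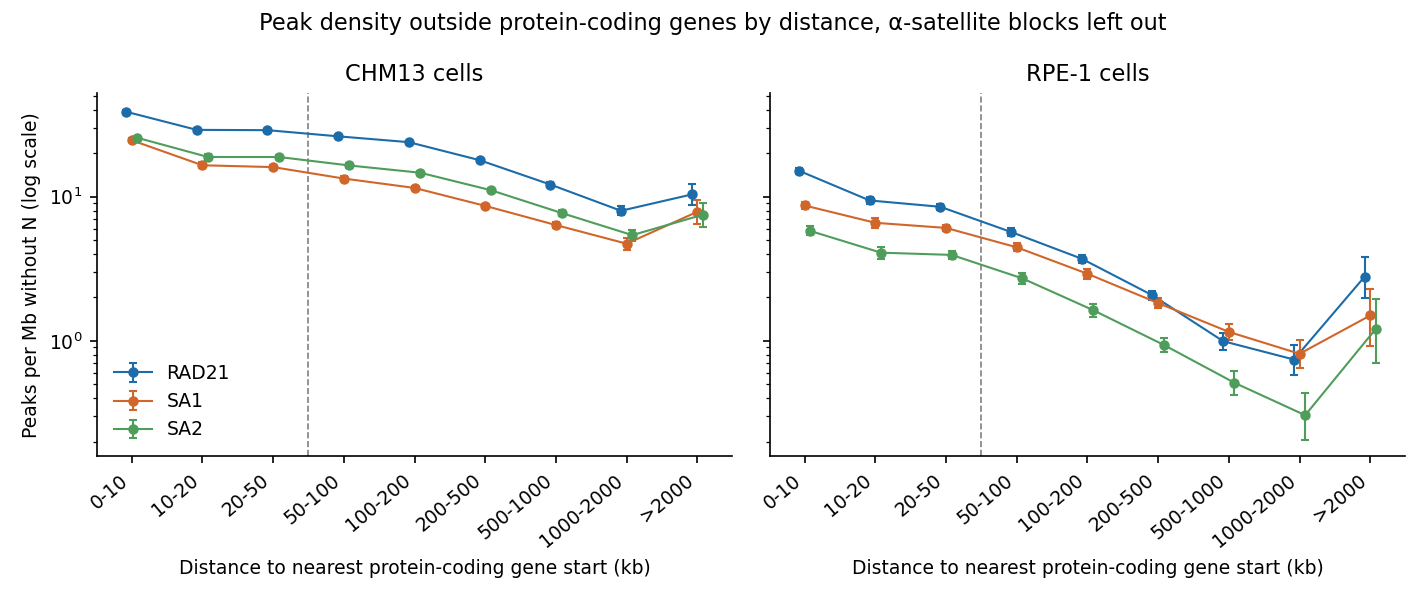
Peaks per Mb of sequence without N (log scale) outside protein-coding genes and α-satellite blocks, by distance to the nearest protein-coding gene start in kb, for RAD21, SA1 and SA2 in CHM13 and RPE-1 cells; bars are exact Poisson 95% intervals and the dashed line is the 50-kb limit. Density is lower at each longer distance up to 2000 kb in 5 of 6 lists, and also in that of SA2 in CHM13 cells except for 18.8 per Mb in both bins from 10 to 50 kb. It goes from 38.8 to 7.97 per Mb for RAD21 in CHM13 cells and from 15.1 to 0.742 per Mb in RPE-1 cells, and is higher again in the last bin in each list.

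In the hg38 lists, SA1 and SA2 peaks of CHM13 cells were also dense in α-satellite, the tandem repeat of centromeres. The study, working on CHM13 v1.0, described cohesin peaks in α-satellite arrays as negligible beside random regions. The SA1 and SA2 densities given here differ from that, on another build and with other blocks, and the cause was not tested. Blocks of α-satellite were located from clusters of at least 20 matches to a degenerate CENP-B box, the motif that the centromere protein CENP-B binds. There were 23 blocks of 56.5 Mb, 4.87% of the far bases, and in hg38 they are modelled rather than assembled sequence. SA1 in CHM13 cells had 1274 far peaks there, 11.0% of its far peaks and 22.5 per Mb (21.3 to 23.8). SA2 had 844, or 14.9 per Mb, and RAD21 285, or 5.04 per Mb (4.47 to 5.66). The order of the subunits was thus opposite to that in the rest of far intergenic space, where RAD21 had 18.7, SA2 11.7 and SA1 9.34 peaks per Mb. In RPE-1 cells the blocks held 70, 19 and 39 peaks of RAD21, SA1 and SA2.

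In these blocks, 50.7% of SA1 peaks of CHM13 cells overlapped neither RAD21 nor SA2 and 30.8% overlapped SA2 alone. Outside the blocks, 88.1% of far SA1 peaks overlapped both. Results below that the blocks move are therefore given also without them.

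Far peaks were of much the same width as the others. The median width of RAD21 peaks in CHM13 cells was 732 bp (727 to 736 bp) against 720 bp in the rest, and 438 bp (433 to 443 bp) against 445 bp in RPE-1 cells. For SA1 the medians were 594 against 620 bp in CHM13 and 397 against 397 bp in RPE-1 cells, and for SA2 613 against 606 bp and 364 against 359 bp. Peaks wider than the median of their list made up 51.1% of far RAD21 peaks in CHM13 cells (49.8% in the whole list), 46.4% of far SA1 (49.9%) and 50.7% of far SA2 peaks (49.9%). In RPE-1 cells these shares were 48.1% (50.0% in the whole list), 50.0% (49.8%) and 52.1% (49.4%). The largest difference from the other peaks, −5.01 percentage points for SA1 in CHM13 cells (−6.10 to −3.92), was −0.49 points (−1.63 to 0.65) without the α-satellite blocks and no longer called. For SA2 in CHM13 cells it was 1.22 points (0.21 to 2.23), and 3.84 points (2.81 to 4.87) without the blocks. For RAD21 in RPE-1 cells it was −2.36 points (−4.32 to −0.39), and −1.69 points (−3.67 to 0.30) without them.

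Spacing differed between the RAD21 lists of the cell lines, which held 73739 peaks in CHM13 and 14939 in RPE-1 cells. A longer list has closer neighbours for that reason alone, and the part of list length was not tested. The median distance from a far RAD21 peak to the nearest RAD21 peak was 7.17 kb in CHM13 cells, against 7.37 kb from the others, although far peaks were sparser per Mb. RPE-1 cells had medians of 62.3 kb (57.3 to 66.5 kb) and 35.7 kb (34.5 to 36.9 kb). A neighbour within 10 kb was found for 59.6% of far RAD21 peaks in CHM13 cells (59.6% of the whole list), a difference of −0.12 points from the others (−0.91 to 0.67) that was not called. In RPE-1 cells it was found for 16.5% of far RAD21 peaks (20.8% of the whole list), 5.51 points below the others (−6.97 to −3.98). In the longer list of CHM13 cells most far RAD21 peaks thus had a close neighbour, and in that of RPE-1 cells few had.

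For SA2, close neighbours were more frequent among far peaks in both lines, with 44.1% in CHM13 cells (40.6% of the whole list), 5.15 points above the others (4.15 to 6.14), and 9.40% in RPE-1 cells (6.43%), 3.84 points above (2.29 to 5.56). For SA1 the share was 39.8% in CHM13 cells (37.5% of the whole list), 3.26 points above the others (2.20 to 4.33), and 1.01 points above (−0.08 to 2.12) without the blocks. In RPE-1 cells it was 13.2% (13.5%), −0.42 points (−1.88 to 1.12) from the others. With a limit of 50 kb in place of 10 kb the difference was −3.90 points for SA1 and −1.66 points for SA2 in CHM13 cells, and −0.142 points for SA2 in RPE-1 cells, so the sign depended on the scale.

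Overlap with the other subunits, counted from 1 shared bp, differed little between far and other RAD21 peaks. Of far RAD21 peaks in CHM13 cells, 43.7% overlapped both SA1 and SA2 (43.1% of the whole list), 16.0% SA2 alone, 4.57% SA1 alone and 35.7% neither. Of the other RAD21 peaks, 42.9% overlapped both. The difference of 0.88 points (0.09 to 1.67) was called but was 0.55 (−0.24 to 1.35) without the blocks and −0.041 beyond 100 kb. In RPE-1 cells 34.7% of far RAD21 peaks overlapped both (32.4% of the whole list), 26.4% SA1 alone, 4.86% SA2 alone and 34.1% neither, and the share with both was 2.83 points (0.98 to 4.71) above the others. This call was lost when far meant more than 100 kb from a start, where the difference was 1.23 points, and with all GENCODE genes, where it was 1.55 points. Of the other RAD21 peaks, 13.4% overlapped SA2 alone and 5.20% SA1 alone in CHM13 cells, and 5.26% SA2 alone and 23.3% SA1 alone in RPE-1 cells. Among RAD21 peaks with only 1 of these subunits, far or not, SA2 was thus the more frequent in CHM13 and SA1 in RPE-1 cells. In each line this was the subunit with the longer list, and the part of list length was not tested.

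Of far SA1 peaks in CHM13 cells, 80.0% overlapped both other subunits (84.4% of the whole list), 6.29 points below the others (−7.13 to −5.45). Without the α-satellite blocks the difference was reversed, 1.74 points above the others (0.98 to 2.48). Of far SA2 peaks, 67.5% overlapped both (72.6% of the whole list), 7.46 points below the others (−8.38 to −6.54), and 4.53 points below (−5.46 to −3.61) without the blocks. In RPE-1 cells the share was 42.0% for SA1 (45.2% of the whole list), 4.31 points below the others (−6.48 to −2.11), and 74.8% for SA2 (75.8%), −1.37 points (−3.94 to 1.11) from the others. For SA1 in RPE-1 cells the call was lost when far meant more than 20 kb from a start, at 0.169 points, and without the narrower peaks of the list, at −1.69 points. For SA1 in CHM13 cells the latter gave 4.35 points. SA1 and SA2 peaks of CHM13 cells that overlapped each other without RAD21 were nearly all far, 511 SA1 peaks against 28 in the rest, and 392 of the 511 lay in α-satellite blocks.

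Far peaks were less often shared between the cell lines than the others, in 6 of 6 lists. The lists of a subunit count the same overlaps from either line, so these are not 6 independent results. In CHM13 cells, a peak of the same subunit in RPE-1 cells overlapped 14.0% of far RAD21 peaks (19.5% of the whole list), 21.1% of far SA1 (27.2%) and 10.2% of far SA2 peaks (14.2%). These shares were 7.66 (−8.24 to −7.06), 8.86 (−9.78 to −7.93) and 5.73 points (−6.37 to −5.07) below those of the other peaks. Since the RPE-1 lists were shorter, the reverse shares were high, with 93.5% of far RAD21 peaks of RPE-1 cells (97.1% of the whole list), 94.6% of far SA1 (97.5%) and 96.2% of far SA2 peaks (98.5%) overlapping a CHM13 peak. They lay 4.59 (−5.53 to −3.74), 3.80 (−4.77 to −2.94) and 2.92 points (−4.05 to −2.01) below the other peaks. Among RAD21 peaks of RPE-1 cells that were at least as wide as the median the difference was −1.10 points and not called. Without the α-satellite blocks the CHM13 differences were −7.57, −6.43 and −5.26 points and the RPE-1 differences −3.21, −3.80 and −2.11 points, in the same order of subunits, and all 6 were called. Nearly all far sites of RPE-1 cells were thus among the sites of CHM13 cells, and most far sites of CHM13 cells were not listed in RPE-1 cells.

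Sharing depended on peak width and on the subunits present. When RAD21 peaks of CHM13 cells were divided by width into 4 groups of the list, 3.66% of the narrowest far peaks were shared against 3.95% of the others, 10.2% against 19.7% in the next, 24.7% against 38.5% in the third, and 17.5% against 24.4% among the widest. Of far RAD21 peaks with both SA1 and SA2, 30.1% were shared (29.2 to 31.1%), against 2.70% of those with only 1 of them and 0.724% (0.555 to 0.943%) of those with neither. Among the other RAD21 peaks of CHM13 cells these shares were 47.0%, 5.43% and 1.33%. RAD21 peaks of CHM13 cells without SA1 and SA2, far or not, were therefore with few exceptions not shared with RPE-1 cells. In the shorter RPE-1 list, 88.9% of the 1073 far RAD21 peaks with neither were shared with CHM13 cells.

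When the far peaks of all lists were joined into 22926 loci, 7399 (32.3%) held RAD21 of CHM13 cells alone and 5736 (25.0%) the 3 subunits of CHM13 cells and none of RPE-1. All 6 lists met at 1053 far loci, 4.59% (4.33 to 4.87%), against 3712 loci or 6.86% (6.65 to 7.07%) elsewhere. Of the 797 far loci with SA1 of CHM13 cells alone, 639 were in α-satellite blocks.

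The CTCF core matched the central 300 bp of fewer far peaks than other peaks in each of the 6 lists. In CHM13 cells it matched 19.7% of far RAD21 peaks (24.9% of the whole list), 30.1% of far SA1 (40.5%) and 25.5% of far SA2 peaks (35.0%), against 27.0%, 45.1% and 39.3% of the other peaks. The differences were −7.36 (−8.02 to −6.70), −14.98 (−16.00 to −13.95) and −13.76 points (−14.67 to −12.85). Without the α-satellite blocks, where the core matched 0.863% of SA1 peaks, the SA1 difference was −11.36 points (−12.45 to −10.27), that of RAD21 −7.11 points and that of SA2 −12.19 points.

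In RPE-1 cells the core was more frequent, at 58.6% of far RAD21 (62.6% of the whole list), 58.1% of far SA1 (62.1%) and 57.1% of far SA2 peaks (64.0%), against 63.6%, 63.3% and 66.0% of the others. The differences were −5.06 (−6.99 to −3.14), −5.26 (−7.43 to −3.09) and −8.97 points (−11.84 to −6.12). Without the blocks they were −3.72, −4.83 and −7.40 points, each still called. Of all consecutive 300-bp windows, 1.30% held a match in far intergenic space and 1.73% in the rest. The GC content of the peak windows differed too, with a median of 41.3% for far and 45.0% for other RAD21 peaks in CHM13 cells, against 47.3% for far and 51.0% for other ones in RPE-1 cells. The part of GC content in the motif difference was not tested.

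The core and the sharing between lines went together. It matched 52.0% (50.2 to 53.8%) of far RAD21 peaks of CHM13 cells that were shared with RPE-1 cells and 14.4% (13.9 to 14.9%) of those that were not. It matched 32.3% of far RAD21 peaks with both SA1 and SA2, 11.0% of those with only 1 of them and 9.06% of those with neither. Among the joined far loci, the core matched 8.44% of those in 1 list, 10.1% in 2, 22.2% in 3, and 48.1 to 50.9% in 4, 5 or 6 lists. Outside far intergenic space the corresponding shares were 10.9%, 15.6%, 33.9% and 54.5 to 56.5%.

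**Figure D2:**
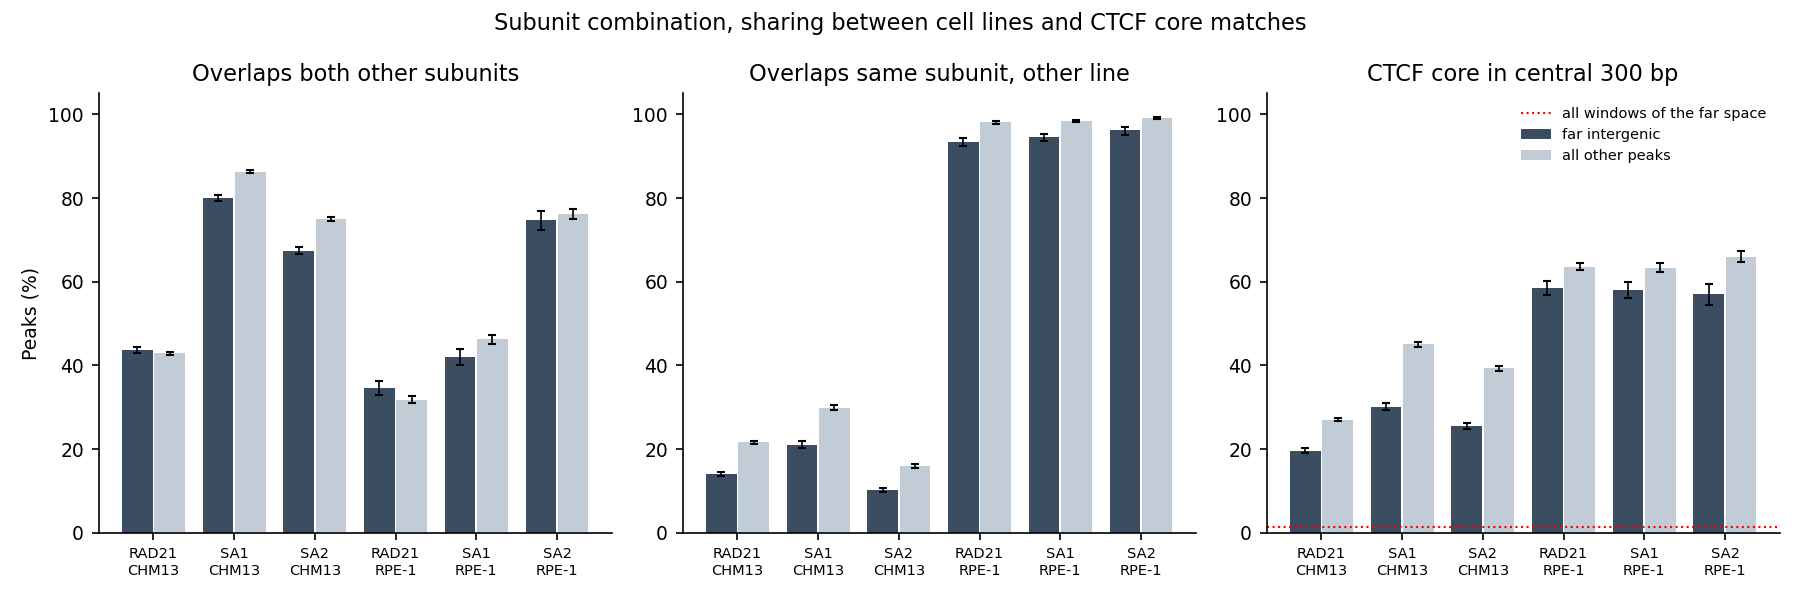
Shares in % of far intergenic peaks and all other peaks that overlap both other subunits of the same line, overlap the same subunit in the other line, or hold a CTCF core match in their central 300 bp, for the 6 lists; bars on the columns are Wilson 95% intervals. Far columns are lower in 6 of 6 lists for sharing (14.0% against 21.7% for RAD21 in CHM13 cells) and for the CTCF core, which stands above the 1.30% of all far windows (dotted line) in every list.

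Far peaks were not evenly placed with respect to long noncoding RNA (lncRNA) genes, which the rule did not use. Of far RAD21 peaks in CHM13 cells, 36.0% lay in an lncRNA gene, which took up 29.1% of the far bases, a density ratio of 1.37 (1.33 to 1.41). This was the largest of the 6 ratios, the others being 1.24 (1.19 to 1.28) for SA2 and 1.11 (1.07 to 1.15) for SA1 in the same cells and 1.09 to 1.10 in RPE-1 cells, where the interval for SA2 (0.984 to 1.23) included no difference. Within 1 kb of an lncRNA start the RAD21 density in CHM13 cells was 58.6 per Mb against 17.6 elsewhere in far space, 3.33 times as high (3.08 to 3.59). This ratio was higher for the lists of RPE-1 cells, at 4.29 (3.50 to 5.20) for SA1, 5.36 (4.54 to 6.28) for RAD21 and 5.73 (4.51 to 7.18) for SA2. Still, such peaks were few, 682 for RAD21 in CHM13 and 162 in RPE-1 cells.

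Gaps of more than 1 Mb between neighbouring protein-coding genes numbered 307. The 286 that touched no α-satellite block and held at most 10% N made up 42.5% of far bases and had a median length of 1.51 Mb. The far space within these deserts held 31.2% of far RAD21 peaks in CHM13 cells and 19.4% in RPE-1 cells. Density was 13.2 per Mb in deserts and 23.7 per Mb in the other far space for RAD21 in CHM13 cells, a ratio of 0.557 (0.540 to 0.573), and 0.299 (0.273 to 0.327) in RPE-1 cells. For SA1 the ratio was 0.553 (0.530 to 0.576) and 0.381 (0.348 to 0.418), and for SA2 0.559 (0.539 to 0.580) and 0.328 (0.287 to 0.373). When genes of every GENCODE type bounded the deserts, the CHM13 ratios were 0.843 (0.635 to 1.10) for RAD21, 1.30 (0.977 to 1.70) for SA2 and 1.60 (1.20 to 2.08) for SA1, so the direction depended on the genes used.

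Single deserts differed far more than this mean. RAD21 density in CHM13 cells ranged from 0 to 99.4 per Mb, with a median of 8.33 and quartiles of 2.34 and 19.1 per Mb, and that in RPE-1 cells from 0 to 7.65 per Mb, with a median of 0.943 per Mb. No RAD21 peak was listed in 13 deserts in CHM13 and 85 in RPE-1 cells, and no peak of any list in 11. In 74 deserts RAD21 was listed in CHM13 cells only, and in 2 in RPE-1 cells only.

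Across the 286 deserts the density of RAD21 in CHM13 cells ranked almost as that of SA1 (Spearman's rho 0.978, Pearson's r 0.970) and SA2 (rho 0.983, r 0.978) in the same cells. It ranked less closely with RAD21 in RPE-1 cells (rho 0.513, r 0.500). That list had 610 peaks in these deserts and none in 85 of them, against 6516 peaks in CHM13 cells. Low counts and ties limit such a correlation, and their part was not tested. The correlations are descriptions, since lists of a line share their cells and deserts on a chromosome are neighbours. Neither the number of CTCF core matches per Mb of desert (rho −0.013) nor GC content (rho 0.067) ranked with RAD21 density in CHM13 cells, whereas in RPE-1 cells rho was 0.214 and 0.277. Core matches and GC content are tied to each other (rho 0.804).

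The densest desert lay between RASGRP1, which encodes a nucleotide exchange factor for Ras, and THBS1, which encodes the matrix glycoprotein thrombospondin 1, at chr15:38565576-39581078. It held 91 RAD21, 56 SA1 and 57 SA2 peaks in CHM13 cells, against 7, 5 and 3 in RPE-1 cells, the highest RAD21 density in both lines. In RPE-1 cells that rank rested on 7 peaks, 7.65 per Mb (3.07 to 15.8), and the HAS2 to ZHX2 desert had 6.73 per Mb (2.71 to 13.9). The desert between RFPL4B and MARCKS, a substrate of protein kinase C at the membrane, at chr6:112351295-113857344, had the most RAD21 peaks, 120 in CHM13 cells (85.1 per Mb) against 5 in RPE-1 cells. Only 3 of the 120 held a CTCF core and 4 were shared with RPE-1 cells. The gap between the matrix gene TNC (tenascin C) and PAPPA, a protease of insulin-like growth factor binding proteins, had 75 and 4 RAD21 peaks. TBL1XR1, a subunit of nuclear receptor corepressor complexes, and KCNMB2, a potassium channel subunit, bordered 73 and 5. PSAT1, of serine synthesis, and the Groucho corepressor gene TLE4 bordered 88 and 3. In these 5 deserts 2.50 to 10.2% of the RAD21 peaks in CHM13 cells held a CTCF core.

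Also among those with the most RAD21 peaks were the desert between CITED2, a transcriptional coregulator, and NMBR, the neuromedin B receptor, with 112 in CHM13 and 5 in RPE-1 cells, and that between the transcription factor gene MYC and the gasdermin gene GSDMC, with 107 and 7. The desert between AGA, a lysosomal hydrolase, and the adhesion gene TENM3 had 92 and 8 over 4.70 Mb, so that its density was 20.0 per Mb. The longest desert, 4.80 Mb between the protocadherin gene PCDH7 and ARAP2, held 17 and 5. CELF4, an RNA-binding protein, and PIK3C3, a phosphoinositide kinase, bordered the third longest, of 4.39 Mb, with 54 and 2.

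Loci present in all 6 lists were counted per desert, without scaling to its length. They numbered 205 in 119 deserts. Between TMEM132B and TMEM132C there were 7 in 2.55 Mb of far space, among 63 RAD21 peaks in CHM13 and 15 in RPE-1 cells. HAS2 (hyaluronan synthase) and ZHX2 enclosed 6 in 1.04 Mb, and the sorting receptor gene SORCS1 and XPNPEP1 enclosed 4 in 2.65 Mb. The desert with the densest RAD21, RASGRP1 to THBS1, held 3 in 0.916 Mb. In the TMEM132B to TMEM132C desert 15 of the 63 RAD21 peaks of CHM13 cells were shared and 13 held a CTCF core, against 4 and 3 of 120 in the RFPL4B to MARCKS desert. The former was named for loci in all 6 lists, which are shared by definition, and the latter for its RAD21 peaks in CHM13 cells. Their contrast in sharing, and in the core that goes with sharing, is thus tied to the selection.

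Among the 13 deserts with no RAD21 peak in CHM13 cells, 4 of the first 5 in order of chromosome name were LRRC4C to API5, LRRTM4 to REG3G, DPP10 to DDX18 and POM121L12 to VSTM2A. LRRC4C and LRRTM4 encode synaptic adhesion proteins and DPP10 an auxiliary subunit of potassium channels. No peak of any of the 6 lists fell in the far space of these 4. With 1.33 to 1.92 Mb each, a count of 0 allows up to 1.92 to 2.77 peaks per Mb (exact Poisson). These 4 were named for having no RAD21 peak in CHM13 cells, so the bound is not set against the other deserts of that line. In RPE-1 cells the median desert had 0.943 RAD21 peaks per Mb, below these bounds, and 85 of 286 deserts had 0. The sequence of the 4 named deserts held 26.6 to 32.4 CTCF core matches per Mb, beside medians of 30.2 to 31.1 per Mb in the 4 groups of deserts described next.

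**Figure D3:**
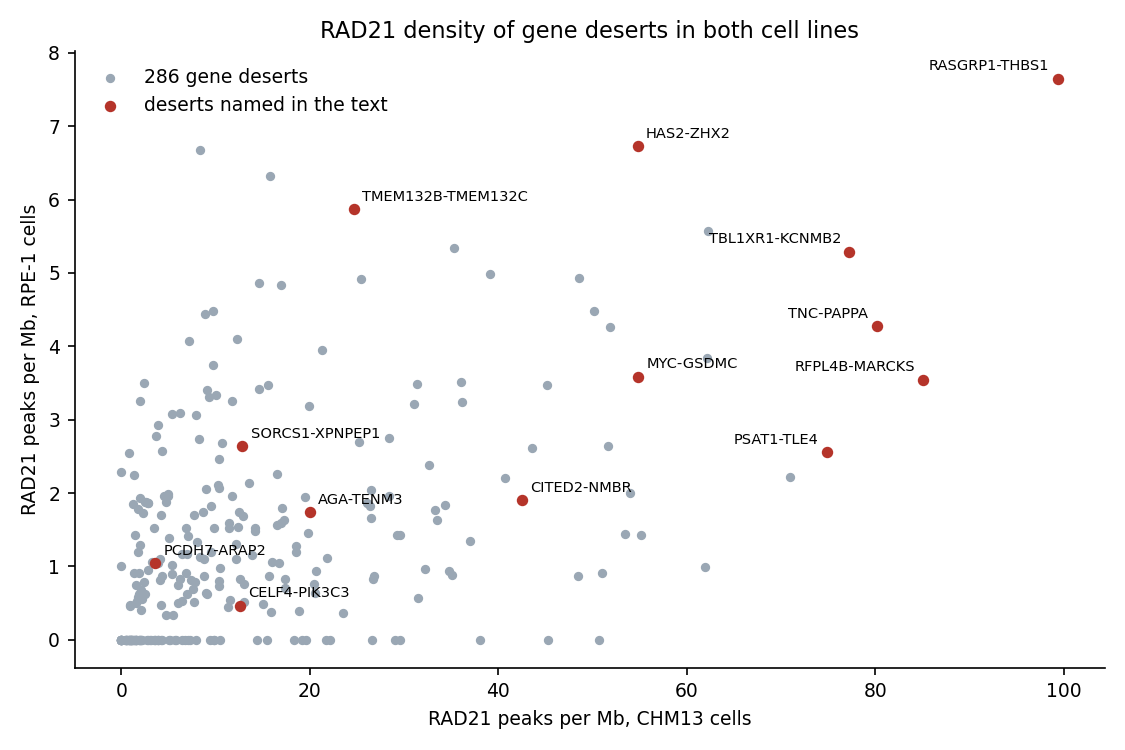
RAD21 peaks per Mb in CHM13 cells (horizontal) and RPE-1 cells (vertical) in the far space of 286 gene deserts, each a point; red points carry the names of their flanking genes, and the 4 named deserts without a peak are not marked. RASGRP1 to THBS1 is highest in both lines at 99.4 and 7.65 per Mb, from 91 and 7 peaks. In RPE-1 cells 85 deserts lie at 0, and the 13 with no RAD21 peak in CHM13 cells lie at 0 on the horizontal axis.

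The make-up of the peaks differed with the density of the desert. When deserts were divided by RAD21 density in CHM13 cells into 4 groups, a grouping made after the densities had been seen and given without a test, the CTCF core matched 62.5% of 136 RAD21 peaks in the 72 sparsest deserts. The share was 32.2% of 676 and 22.4% of 1673 in the next groups and 9.87% of 4031 peaks in the 72 densest. From the sparsest to the densest group, RAD21 peaks with the core went from 0.728 to 3.48 per Mb, and those without it from 0.437 to 31.8 per Mb, so the groups differed mainly by peaks without the core. Peaks shared with RPE-1 cells made up 23.5% in the sparsest and 5.46% in the densest group. The reverse share went the other way, with 56.1% of RPE-1 RAD21 peaks shared with CHM13 cells in the sparsest and 96.9% in the densest group. RAD21 in RPE-1 cells, which the grouping did not use, had the core in 57.9% (45.0 to 69.8%) of 57 peaks in the sparsest and 57.2% (50.7 to 63.4%) of 229 in the densest group. Median GC content was 37.0 and 37.1%, and median core matches 31.1 and 30.4 per Mb of desert, in these groups.

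**Figure D4:**
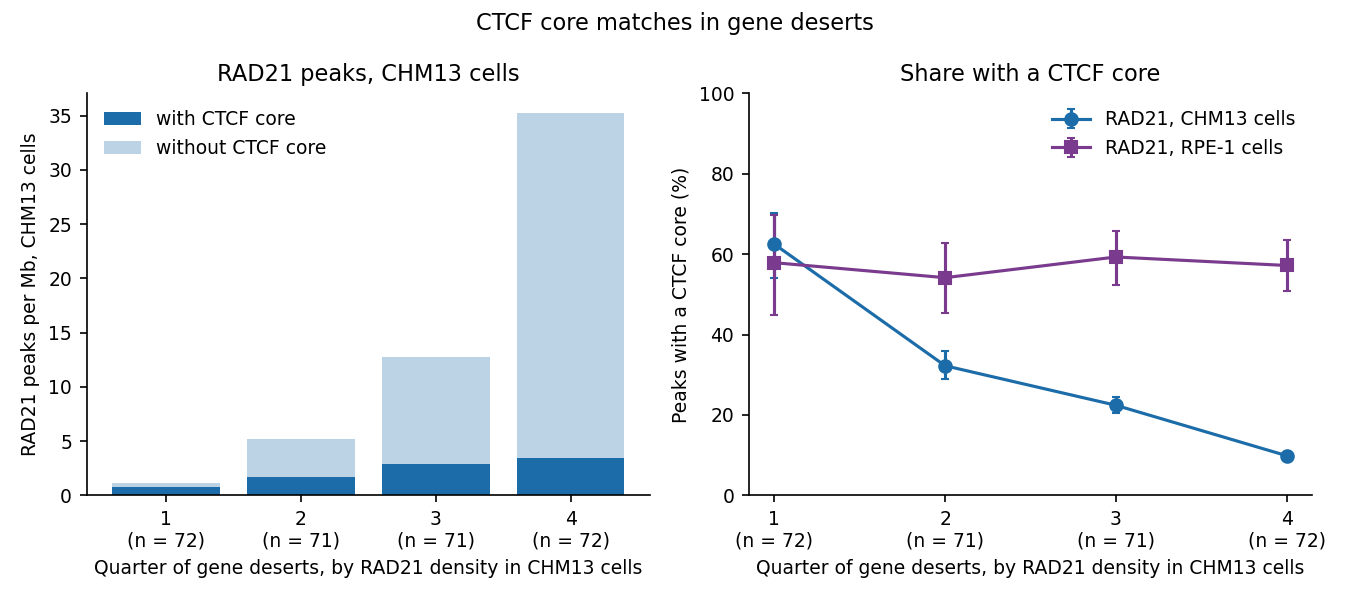
Left, RAD21 peaks per Mb in CHM13 cells with and without a CTCF core match, in 4 groups of gene deserts ordered by that density; right, share in % of RAD21 peaks with a match in both lines, with Wilson 95% intervals. Peaks without the core go from 0.437 to 31.8 per Mb, while in RPE-1 cells the share with the core is between 54.2 and 59.3%.

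Genes at the borders of deserts were grouped by 2 fixed lists. Their names are loose for some members, such as LMO4 and AUTS2 in the first and CDH11 in the second. Of all 19970 protein-coding genes, 530 flanked deserts. Of 130 transcription factors of development, 33 flanked 35 of the deserts, and in CHM13 cells these held 13.1 RAD21 peaks per Mb (12.2 to 14.1), against 13.2 in all deserts. The median desert had 9.86 per Mb, against 8.33. Of 94 genes of neuronal adhesion and guidance, 61 flanked 72 deserts, with 9.43 per Mb (8.97 to 9.92) and 6.09 per Mb in the median desert. The corresponding RPE-1 densities were 1.26 and 0.991 per Mb, against 1.24 in all.

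Counted by the nearest protein-coding start rather than by desert, far RAD21 peaks of CHM13 cells belonged to 3447 genes, and 400 genes accounted for 50% of them. CDH11, a cadherin of mesenchymal cells, was nearest to 102 far RAD21 peaks in CHM13 cells and 0 in RPE-1 cells. The cadherin gene CDH9 and CITED2 followed with 80 each, against 1 and 2 in RPE-1 cells. MARCKS had 72 against 5, the corepressor genes TLE4 and TLE1 71 against 1 and 69 against 0, the transcription factor gene ZEB2 69 against 2 and MYC 68 against 2. INHBA, which encodes an activin subunit, had 67 against 3. TPTE, a phosphatase gene next to the centromere of chromosome 21, differed from these, with 73 in CHM13 and 27 in RPE-1 cells, the only one of the 10 with more than 5 in RPE-1 cells. SA1 and SA2 of CHM13 cells had 21 to 66 and 23 to 62 far peaks nearest to these 10 genes.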

How the data were processed

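RAD21, SA1 and SA2 ChIP-seq of CHM13 and RPE-1 cells was analysed from 6 deposited peak lists on hg38. Their values are start and end positions in bp, made by the authors from replicates called separately and merged, keeping loci seen in more than 1 replicate. The submitters' processing notes name bcl2fastq 2.20, BWA, SAMtools, MACS2 and hg38. The study's methods state the alignment for CHM13 v1.0, and that for hg38 is not given in the sources used here. The lists on CHM13 v1.0 were only counted.

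Positions were analysed in Python 3.11.15 using numpy 2.4.6, pandas 2.3.3, scipy 1.17.1, statsmodels 0.14.6 and numba 0.67.0. Peaks were assigned by their centre to genes of GENCODE 44, and densities are per Mb without N. Shares carry Wilson, differences of shares Newcombe, densities exact Poisson and ratios exact conditional intervals, tested on simulated data. α-satellite blocks were the largest cluster per chromosome of degenerate CENP-B box matches closer than 100 kb. Deserts were named by rule: the 5 with the most RAD21 peaks of CHM13 cells, the 5 densest, the 5 sparsest (ties in order of chromosome name), the 3 longest and the 3 with the most loci in all 6 lists. Of the sparsest, 1 is not reported here. The 10 genes nearest to the most far RAD21 peaks were named too. The members, the gene lists and the rules were chosen with earlier results of these data known, so no list is independent evidence. Alternatives concerned the distance limit, the gene set and starts, assignment, α-satellite blocks, joining, chromosome X, width, overlap, neighbour and desert limits, and the motif. A planned share of soft-masked sequence could not be computed, since the sequence used is in upper case throughout.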

Additional observations from a re-analysis of the deposited data

Results flagged for a closer look

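The far-minus-other differences of 7 measures were compared between CHM13 and RPE-1 cells for 3 subunits, 21 comparisons, with intervals widened for that number. In 16 the interval excluded no difference, and for this reason they are given here, on the log2 scale for ratios and in percentage points otherwise, as CHM13 minus RPE-1. Antibody (RAD21), sonication, sequencing depth, number of replicates and list length differ between the lines and cannot be told apart from the cell line.

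The far density ratio differed by 0.57 for RAD21, 0.45 for SA1 and 0.60 for SA2 on the log2 scale, and the desert density ratio by 0.90, 0.54 and 0.77. In density, far sequence was thus nearer to the rest, and deserts nearer to the other far space, in CHM13 than in RPE-1 cells, for each subunit. Without the α-satellite blocks the far density ratio still differed by 0.58, 0.29 and 0.55.

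The far difference in sharing between the lines differed by −3.07 points for RAD21, −5.06 for SA1 and −2.80 for SA2, and without the blocks by −4.36, −2.63 and −3.15 points. Both lines count the same overlaps here, for RAD21 those of 2925 far peaks in CHM13 and 2942 in RPE-1 cells. The intervals take the lines as independent and so do not hold for sharing. Shares also depend on list length, so no difference between the lines is read from these values. The far difference in the share with a CTCF core differed by −9.72 points for SA1 and −4.80 for SA2, and by −6.54 and −4.79 points without the blocks. For RAD21 it was −2.31 points (−5.46 to 0.851), and −3.39 points (−6.56 to −0.213) without the blocks.

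For close neighbours the lines differed by 5.39 points for RAD21 and 3.68 for SA1, and for wide peaks by 4.14 points for RAD21 and −5.25 for SA1. Without the blocks the SA1 values were 1.41 points (interval −1.48 to 4.30) and −0.71 points (−4.57 to 3.15). For overlap with both other subunits the lines differed by −6.09 points for SA2. For SA1 this difference was −1.98 points (−5.61 to 1.65), and 6.09 points (2.50 to 9.68) without the blocks.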

How the results depend on the processing

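The lower density of far peaks kept its direction and its call under all 60 alternatives over the 6 lists, with ratios from 0.303 to 0.745, and the lower share with a CTCF core under all 66. The lower share found in both lines kept both under 65 of 66 and the lower density of deserts under 73 of 78. The other differences, of a few points each, depended more on the choices, and of 456 values in all 29 changed sign, 20 were no longer called and 9 were newly called. They are given here in percentage points, far minus other peaks; a value without a mark was no longer called, and a change of sign is marked also where the difference was not called to begin with. Beyond 100 kb, the difference in the share with both subunits was −0.041 for RAD21 in CHM13 (reversed) and 1.23 for RAD21 in RPE-1. The wide share difference was 0.933 for SA2 in CHM13 and −0.682 for SA1 in RPE-1 (reversed). The close-neighbour share difference was −2.29 for SA1 in RPE-1 (newly called). With all GENCODE genes in place of protein-coding ones, the wide share difference was −3.43 for RAD21 in CHM13 (reversed), −6.57 for SA2 in CHM13 (reversed), −2.96 for SA1 in RPE-1 (reversed) and 2.85 for SA2 in RPE-1. The close-neighbour share difference was −7.23 for RAD21 in CHM13 (newly called), 1.47 for SA2 in CHM13 and 0.018 for SA1 in RPE-1 (reversed). The desert density ratio was 0.843 for RAD21 in CHM13, 1.60 for SA1 in CHM13 (reversed), 1.30 for SA2 in CHM13 (reversed), 0.470 for SA1 in RPE-1 and 0.257 for SA2 in RPE-1. The difference in the share with both subunits was 1.55 for RAD21 in RPE-1 and −6.2 for SA2 in RPE-1 (newly called). With every transcript start, the difference in the share with both subunits was −0.177 for RAD21 in CHM13 (reversed) and −2.68 for SA2 in RPE-1 (newly called). The wide share difference was −0.865 for SA1 in RPE-1 (reversed). The close-neighbour share difference was −2.32 for SA1 in RPE-1 (newly called). Without the α-satellite blocks, the close-neighbour share difference was 0.361 for RAD21 in CHM13 (reversed) and 1.01 for SA1 in CHM13. The difference in the share with both subunits was 0.553 for RAD21 in CHM13, 1.74 for SA1 in CHM13 (reversed) and 0.050 for SA2 in RPE-1 (reversed). The wide share difference was −0.491 for SA1 in CHM13 and −1.69 for RAD21 in RPE-1. With peaks closer than 1 kb joined, the close-neighbour share difference was 0.286 for RAD21 in CHM13 (reversed). The difference in the share with both subunits was 0.568 for RAD21 in CHM13. The wide share difference was −0.0054 for SA1 in RPE-1 (reversed). Without chromosome X, the difference in the share with both subunits was 0.739 for RAD21 in CHM13. The wide share difference was 1.93 for SA2 in RPE-1. Without peaks narrower than the list median, the close-neighbour share difference was 5.54 for RAD21 in CHM13 (reversed) and 3.09 for SA1 in RPE-1 (reversed). The difference in the share with both subunits was 0.789 for RAD21 in CHM13, 4.35 for SA1 in CHM13 (reversed) and −1.69 for SA1 in RPE-1. The difference in the share found in both lines was −1.1 for RAD21 in RPE-1. With neighbours within 5 kb, the close-neighbour share difference was 0.869 for RAD21 in CHM13 (reversed) and 0.886 for SA1 in RPE-1 (reversed). With neighbours within 50 kb, the close-neighbour share difference was −3.8 for RAD21 in CHM13 (newly called), −3.9 for SA1 in CHM13 (reversed), −1.66 for SA2 in CHM13 (reversed), −4.95 for SA1 in RPE-1 (newly called) and −0.142 for SA2 in RPE-1 (reversed). With overlap of at least 50% of both peaks, the difference in the share with both subunits was −0.86 for RAD21 in CHM13 (reversed). With wide peaks taken as those over 1 kb, the wide share difference was 0.797 for SA1 in CHM13 (reversed), −0.015 for RAD21 in RPE-1 and 0.363 for SA1 in RPE-1 (newly called). Beyond 20 kb, the wide share difference was 0.582 for SA2 in CHM13, 0.287 for RAD21 in RPE-1 (reversed) and 2.4 for SA1 in RPE-1 (newly called). The close-neighbour share difference was 0.285 for SA1 in RPE-1 (reversed). The difference in the share with both subunits was 0.169 for SA1 in RPE-1 (reversed) and 1.49 for SA2 in RPE-1 (reversed). The cause of these changes was not tested. No paired analysis was possible because each list pools its replicates, and for the same reason no replicate could be left out. The lists hold no heights, so a stricter peak threshold could not be tried, and width stood in for it. The files hold no read counts, so no value could be scaled to depth, and a site missing from a list may be below the calling limit.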
